A study of Mus musculus with 16 samples.

Results

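Interleukin and interleukin receptor genes were taken as the genes of chromosomes 1 to 19 that the deposited peak lists name with the prefix Il followed by a number. Of 79 such names, 74 lay on these chromosomes, out of 21348 genes with a transcription start site (TSS) in the lists' annotation. The 74 genes comprised 35 ligands, 33 receptor chains, 4 decoy receptors, binding proteins or antagonists, and 2 others (Il4i1, an amino acid oxidase, and Il8, a chemokine that RefSeq lists as Cxcl15). Il1f5, which encodes an antagonist of the IL-36 receptor, was counted among the ligands. A gene had to be named at a peak in at least 1 list to be counted. Interleukin genes with no peak assigned anywhere are therefore not among the 74.

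Chromatin accessibility was measured by ATAC-seq, in which the Tn5 transposase inserts adapters into open DNA, in germ cells purified from C57BL/6 mouse testis. Scml2-KO and wild-type (WT) mice were used. Scml2 is an X-linked, germline Polycomb-associated gene, and the peak lists carry no readout of its deletion. Scml2-KO and WT testes at postnatal day 7 (P7) gave Thy1+ spermatogonia (Thy1), among which the stem cells and progenitors are found, and c-Kit+ spermatogonia (cKit), which have begun to differentiate. Pachytene spermatocytes (PS), cells in meiotic prophase, and round spermatids (RS), the haploid cells that follow meiosis, came from adult Scml2-KO and WT testes. Each of the 8 groups had 2 libraries. Whether the libraries of a group stem from different animals is not in the labels, and the spread that p-values rest on may therefore be technical. Stage and age cannot be told apart between the adult and the P7 libraries. Cells per reaction also differed, with 500000 for Thy1 and cKit, 250000 for PS and 1000000 for RS. Cell number therefore cannot be told apart from stage between adult and P7 libraries, or between PS and RS.

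A promoter peak is a peak that overlaps the window of 1 kb on either side of a TSS, and a gene is called open in a library that has one. Where a peak is missing, no signal passed the threshold of the caller, which does not show that the chromatin was closed. Fold enrichments are the authors' values for the summit of a peak over the background of its own library, and they are given here to describe peaks, not as a measure of change between libraries. The lists held 17813 to 164060 peaks, the number of reads behind them is unknown here, and replicate 1 had the longer list in all 8 groups. The shortest list was Scml2-KO cKit replicate 2 and the longest was Scml2-KO RS replicate 1. As the cells are bulk samples, a weaker signal in every cell and a signal in fewer cells cannot be told apart.

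Interleukins are secreted signalling proteins that leukocytes, epithelia and stromal cells use to communicate. Most bind receptors built from a ligand-specific chain and a shared signalling chain. IL-6 family receptors share gp130 (Il6st), the IL-1, IL-33 and IL-36 receptors share the accessory chain Il1rap, and IL-17 receptors share Il17ra. Receptors of the IL-2, IL-6, IL-10 and IL-12 types signal through Janus kinases and STAT factors, whereas IL-1 and IL-17 receptors signal through adaptors to NF-kB. In the testis, IL-1 and IL-6 are known mainly from Sertoli cells, Leydig cells and macrophages, which surround or nurse the germ cells.

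RefSeq promoters of build GRCm38.p6, each running from 250 bases before to 50 bases after a start, were matched within 100 bp of a TSS for 53 of the 74 genes. The 7 below are shown because they span the patterns that follow. Il6st and Il11ra1 were open in all 16 libraries, Il15ra, Il12a and Il31ra in P7 libraries only, Il33 in Thy1 libraries only, and Il2ra in none. The sequences read 5′ to 3′ on the strand of the gene, and capitals mark CpG dinucleotides.
Il6st, chr13:112463820-112464119, plus strand: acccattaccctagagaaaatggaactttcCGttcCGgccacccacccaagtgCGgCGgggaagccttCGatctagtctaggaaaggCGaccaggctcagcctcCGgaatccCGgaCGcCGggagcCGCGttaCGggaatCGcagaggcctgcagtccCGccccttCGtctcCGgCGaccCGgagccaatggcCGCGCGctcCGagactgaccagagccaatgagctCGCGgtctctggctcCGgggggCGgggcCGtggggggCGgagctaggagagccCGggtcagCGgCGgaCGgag
Il11ra1, chr4:41760193-41760492, plus strand: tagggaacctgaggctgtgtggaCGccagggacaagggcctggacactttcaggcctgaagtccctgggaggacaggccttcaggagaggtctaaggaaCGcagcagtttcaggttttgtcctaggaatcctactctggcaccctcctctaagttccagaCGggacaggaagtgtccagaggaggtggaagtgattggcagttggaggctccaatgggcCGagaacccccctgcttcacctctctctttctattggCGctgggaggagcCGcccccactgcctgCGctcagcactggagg
Il15ra, chr2:11705462-11705761, plus strand: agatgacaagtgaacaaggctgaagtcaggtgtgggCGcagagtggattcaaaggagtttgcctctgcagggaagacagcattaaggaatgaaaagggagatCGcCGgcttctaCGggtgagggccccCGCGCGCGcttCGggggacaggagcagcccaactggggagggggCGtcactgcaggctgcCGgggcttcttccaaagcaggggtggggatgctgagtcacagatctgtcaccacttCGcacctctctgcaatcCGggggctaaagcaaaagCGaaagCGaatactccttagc
Il12a, chr3:68691174-68691473, plus strand: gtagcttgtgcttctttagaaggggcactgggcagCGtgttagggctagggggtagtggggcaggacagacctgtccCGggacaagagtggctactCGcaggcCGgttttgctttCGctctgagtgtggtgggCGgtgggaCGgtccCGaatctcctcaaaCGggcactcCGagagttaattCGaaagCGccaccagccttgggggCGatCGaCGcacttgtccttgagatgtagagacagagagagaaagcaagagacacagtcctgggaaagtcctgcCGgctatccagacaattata
Il31ra, chr13:112580613-112580912, minus strand: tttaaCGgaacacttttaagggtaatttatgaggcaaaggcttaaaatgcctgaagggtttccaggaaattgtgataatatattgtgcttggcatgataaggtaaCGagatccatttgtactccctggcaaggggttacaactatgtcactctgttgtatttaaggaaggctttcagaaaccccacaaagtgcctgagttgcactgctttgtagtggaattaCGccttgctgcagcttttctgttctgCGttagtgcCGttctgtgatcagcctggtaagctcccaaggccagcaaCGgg
Il33, chr19:29945540-29945839, plus strand: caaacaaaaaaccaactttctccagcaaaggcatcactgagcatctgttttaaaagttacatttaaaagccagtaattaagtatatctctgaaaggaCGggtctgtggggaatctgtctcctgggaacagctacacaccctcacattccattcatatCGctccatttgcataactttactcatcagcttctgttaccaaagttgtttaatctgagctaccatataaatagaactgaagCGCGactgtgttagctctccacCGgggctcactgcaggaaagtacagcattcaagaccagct
Il2ra, chr2:11642542-11642841, plus strand: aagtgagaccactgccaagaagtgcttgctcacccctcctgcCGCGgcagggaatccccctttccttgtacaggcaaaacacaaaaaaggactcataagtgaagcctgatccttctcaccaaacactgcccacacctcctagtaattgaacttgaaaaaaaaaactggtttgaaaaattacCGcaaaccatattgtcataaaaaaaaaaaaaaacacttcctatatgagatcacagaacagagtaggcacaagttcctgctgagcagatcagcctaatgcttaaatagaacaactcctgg

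The Il6st window held 33 CpG and had a CpG observed over expected ratio of 0.943. Il11ra1, also open everywhere, held 7 CpG with a ratio of 0.267. The Il15ra window held 15 CpG (0.601), that of Il12a 16 (0.682), that of Il31ra 6 (0.407), that of Il33 5 (0.382) and that of Il2ra 3 (0.231). Il15ra and Il12a each have a pair of annotated starts, and the window printed is that of the start nearest to their peak summits by the median, though some summits lie outside it.

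Most interleukin genes had few promoter peaks. Of the 74 genes, 32 had none in any of the 16 libraries, which is 43.2% of them, against 15% of all genes. At the other end, 7 genes were open in 16 of 16 libraries (9.46%, against 39.1% of all genes). Between them, 13 genes were open in 1 to 4 libraries, 16 in 5 to 11, 4 in 12 to 14, and 2 in 15.

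Ligands and receptors differed in this respect. Among the ligands 20 of 35 had no promoter peak in any library (57.1%) and the median ligand was open in 0 libraries. Among the receptor chains 9 of 33 had none (27.3%), 8 were open in 15 or 16 libraries, and the median was 7. These counts are a description, since the genes were chosen by name and many of the ligands sit in gene clusters whose members share their surroundings.

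**Figure D1:**
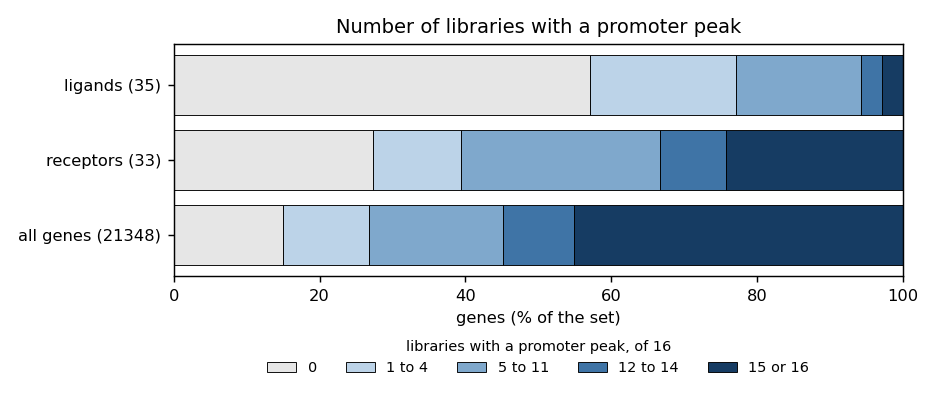
Stacked bars give, for 35 ligands, 33 receptors and all 21348 genes, the percentage of genes (x axis) with a promoter peak in 0, 1 to 4, 5 to 11, 12 to 14, and 15 or 16 of the 16 libraries. The class of 0 libraries holds 57.1% of ligands and 27.3% of receptors, and the class of 15 or 16 libraries holds 1 ligand and 8 receptors.

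The ligands open in no library were Il1a, Il1b, Il1f5, Il1f8 and Il1f9 of the IL-1 family, the T-cell cytokines Il3, Il4, Il13, Il17f, Il21 and Il22, the IL-10 family genes Il10, Il19, Il20 and Il24, and Il16, Il17b, Il25, Il27 and Il34. The receptor chains open in none were Il2ra and Il2rb (IL-2), Il5ra (IL-5), Il7r (IL-7), Il12rb1 (IL-12 and IL-23), Il23r (IL-23), Il17re (IL-17C), Il18rap (IL-18) and Il20rb (IL-20). The antagonists Il18bp and Il22ra2, which bind IL-18 and IL-22, also had none, nor did Il8. Il1f5, named above with the ligands, is an antagonist too.

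The window decides membership in these classes for a few genes. The nearest peak to a TSS of Il17b lay 1228 bp away, that of Il18bp 1232 bp, that of Il2rb 1235 bp and that of Il7r 1352 bp, so all 4 fell just outside. Just inside, the nearest peak edge lay 868 bp from a TSS of Il1rl1, the IL-33 receptor, 825 bp from that of Il1r2 and 743 bp from that of Il9.

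The 7 genes open in all 16 libraries were 6 receptor chains and 1 ligand. They were Il6st, Il11ra1 (the IL-11 receptor alpha chain), Il1rap, Il3ra (the IL-3 receptor alpha chain), Il17ra, Il17rd (an IL-17 receptor family member known as an inhibitor of FGF signalling) and a single ligand, Il17d. Il4ra, the IL-4 and IL-13 receptor chain, was open in 15 libraries and lacked a peak in WT PS replicate 2. Il17rb, the IL-25 receptor chain, was open in 15 and lacked one in Scml2-KO cKit replicate 2, but its window is shared with that of Chdh, so the peak cannot be given to either gene. Il11ra1 has near-identical copies in the mouse genome, so where its reads were placed is uncertain.

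Il6st carried strong peaks at every stage. In adult libraries its fold enrichment had a lowest value of 14.7, a median of 23.7 and a highest of 31.8, and in P7 libraries these were 10.5, 24.2 and 32.0. The adult and P7 values overlapped almost entirely, and within the lists the Il6st peak stood at a median percentile of 96.8 by fold enrichment. It had the highest median fold enrichment of all 74 genes, 23.7 over its 16 libraries.

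Il3ra was next with a median of 21.9. Its adult values ran from 17.7 over a median of 23.7 to 42.6. Its P7 values ran from 9.44 over 18.0 to 32.0, with overlap. These ranges compare different summits. The P7 values had summits at -783 to -742 bp from the TSS, upstream of it, and the adult values at 732 to 1370 bp downstream. In RS the peaks with summits upstream, at -745 to -681 bp, had folds of 15.9 and 9.53 in Scml2-KO and 12.2 and 11.6 in WT. Csf2rb and Csf2rb2, the beta chains through which IL-3 signals, had no promoter peak in any library.

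Il17d and Il1rap were open everywhere but their fold enrichments fell into separate ranges. Il17d, a ligand of the IL-17 family, had 13.5 as its lowest, 18.9 as its median and 30.3 as its highest fold enrichment in adult libraries, and 5.24, 8.34 and 10.4 in P7 libraries. Every adult value lay above every P7 value. The adult values came from summits 647 to 981 bp downstream of the TSS. Some adult libraries had a separate peak nearer the TSS, with folds below or within the P7 range. These were 7.80 in Scml2-KO PS replicate 1, 4.13 in WT PS replicate 1, and 3.88 and 5.26 in WT RS replicates 1 and 2. Il1rap, the accessory chain of the IL-1, IL-33 and IL-36 receptors, had 4.43, 8.28 and 13.0 in adult libraries and 13.1, 23.9 and 38.0 in P7 libraries. Here every P7 value lay above every adult value, by a narrow gap. These folds also depend on how deeply each library was read, and they were not tested. How many of the 8352 genes open in all 16 libraries have adult and P7 folds in separate ranges was not counted.

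Among the other receptors open at all stages, Il4ra had adult values of 4.13 (lowest), 4.98 (median) and 11.4 (highest) in 7 libraries, and P7 values of 7.34, 14.2 and 27.1 in 8 libraries. The ranges overlapped. Il17ra had a median of 10.7 in adult libraries and 9.13 in P7 libraries, and Il17rd had 8.62 in adult libraries and 11.9 in P7 libraries, both with overlap. Il6ra, the IL-6 binding chain, was open in 7 adult and 7 P7 libraries, and Il11, the ligand of Il11ra1, in 6 adult and 8 P7 libraries.

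**Figure D2:**
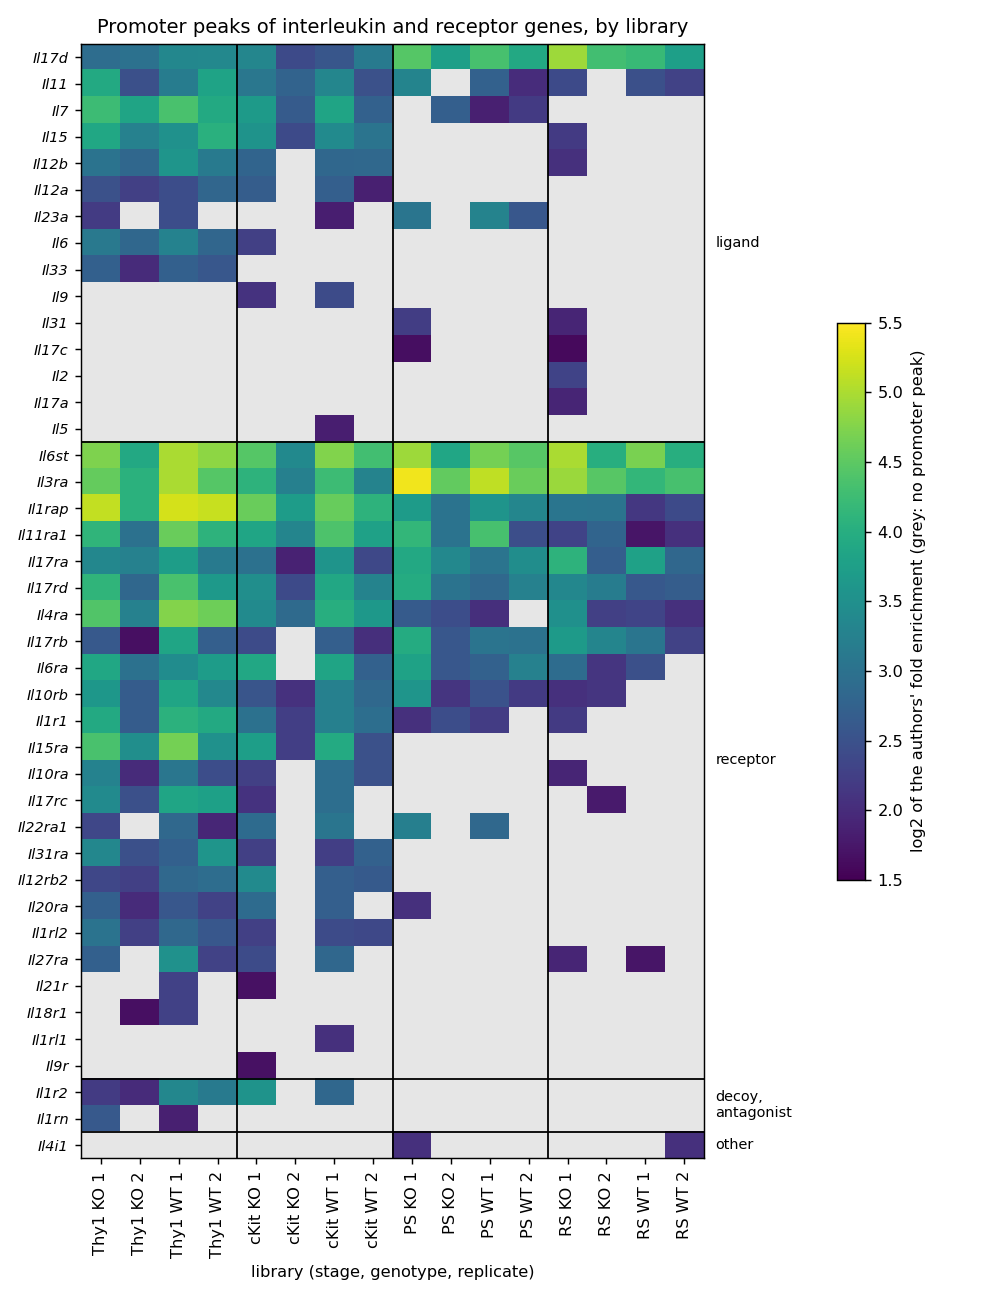
Each row is 1 of the 42 genes with a promoter peak in at least 1 library, grouped by role, and each column is 1 library, ordered by stage with Scml2-KO before WT. Colour gives log2 of the authors' fold enrichment and grey marks no promoter peak; Il6st and Il3ra are coloured across all 16 columns, whereas Il15ra and Il12a are coloured at P7 stages only.

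Fewer interleukin genes were open in adult than in P7 libraries. On average 19.8% ± 4.95 of the 74 genes had a promoter peak in adult libraries and 37.0% ± 8.58 in P7 libraries (SD, n = 8 each). The adult libraries ranged from 14.9% to 28.4%, and 1 P7 library, at 18.9%, lay within that range. For all genes the shares were 60.5% ± 5.90 in adult and 66.5% ± 7.74 in P7 libraries. By stage, the interleukin share was 40.9% ± 3.00 in Thy1, 33.1% ± 11.1 in cKit, 20.6% ± 3.88 in PS and 18.9% ± 6.34 in RS (SD, n = 4 each). Ligands had 10.0% ± 6.48 in adult and 21.8% ± 5.05 in P7 libraries, and receptors had 33% ± 5.48 in adult and 56.8% ± 12.2 in P7 libraries.

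Because replicate 1 had the longer lists, the shares were also taken within each replicate number. In replicate 1 the share of the 74 genes was 23.0% ± 5.29 in adult and 42.6% ± 1.35 in P7 libraries (SD, n = 4 each). In replicate 2 it was 16.6% ± 1.29 in adult and 31.4% ± 9.32 in P7 libraries. The lowest P7 share, 18.9%, belonged to Scml2-KO cKit replicate 2, the shortest list, and the highest adult share, 28.4%, to Scml2-KO RS replicate 1, the longest. Gene by gene, 6 of the 42 genes with a peak (14.3%) were open in more adult libraries, 27 (64.3%) in more P7 libraries and 9 (21.4%) in equal numbers. Of all 18156 genes with a peak, 18.9% were open in more adult libraries, 31.8% in more P7 libraries and 49.3% in equal numbers.

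**Figure D3:**
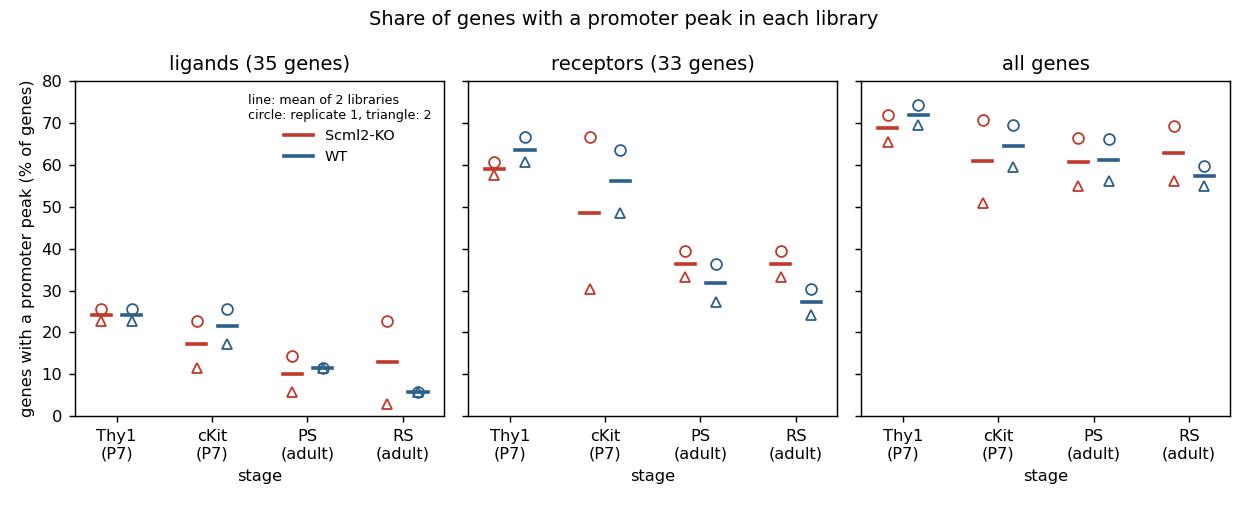
Each symbol is the percentage of genes with a promoter peak in 1 library (y axis) by stage (x axis), for ligands, receptors and all genes, with Scml2-KO left of WT; circles are replicate 1, triangles replicate 2, and bars the mean of the pair. Receptors averaged 61.4% in Thy1 and 31.8% in RS, and replicate 1 lies at or above replicate 2 in every pair.

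The number of open libraries was compared between the 8 adult and 8 P7 libraries by Fisher's exact test, two-sided, for each gene with Benjamini-Hochberg adjustment over the 3915 genes open in 5 to 11 libraries, the only ones able to reach 0.05. Of the 16 interleukin genes in that range, 9 passed an adjusted p of 0.05. Of these 0 were open in more adult libraries and 9 in more P7 libraries, while 8.48% of all genes tested passed towards adult and 24.7% towards P7. Over all genes 332 passed towards adult and 967 towards P7, and with equal list lengths 814 passed towards adult and 1312 towards P7. The 9 interleukin genes that passed with the full lists were 3 ligands, 5 receptor chains and 1 decoy receptor.

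Il15ra had the lowest adjusted p. The chain binds IL-15 and presents it to cells that carry Il2rb and Il2rg. It had a promoter peak in 0 of 8 adult libraries and in 8 of 8 P7 libraries (adjusted p = 0.00360, Fisher exact test). Fold enrichments at P7 were 20.4 and 11.1 in Scml2-KO Thy1, 25.3 and 11.5 in WT Thy1, 13.3 and 4.72 in Scml2-KO cKit, and 15.4 and 5.65 in WT cKit, replicate 1 first. The groups did not overlap in presence, and replicate 1 had the higher fold in each pair. Its peaks spanned chr2:11705137-11707121 (mm10), with the median summit at -14 bp from the TSS at 11705712.

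Il15, the ligand, followed the same order. It was open in 1 of 8 adult libraries, Scml2-KO RS replicate 1 with a fold of 4.54, and in 8 of 8 P7 libraries (adjusted p = 0.00879, Fisher exact test). Its P7 folds were 14.8 and 9.54 in Scml2-KO Thy1, 11.5 and 16.4 in WT Thy1, 11.7 and 5.24 in Scml2-KO cKit, and 10.7 and 8.23 in WT cKit. Every P7 value lay above the single adult value. The Il15 peaks had a median length of 1385 bp, with the median summit at -513 bp from the TSS at 82402586, negative distances being upstream. Il2rb, the signalling chain for IL-15, had no promoter peak in any library.

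Il12a encodes the p35 subunit of IL-12 and Il12rb2 a chain of its receptor. Each was open in 0 of 8 adult libraries and in 7 of 8 P7 libraries, the missing one being Scml2-KO cKit replicate 2 (adjusted p = 0.00879 for each, Fisher exact test). Il12a folds at P7 were low, 3.60 to 7.09 with a median of 5.60, and those of Il12rb2 were 4.77 to 10.7 with a median of 6.53. Il12b, the p40 subunit shared by IL-12 and IL-23, was open in 1 adult library, again Scml2-KO RS replicate 1 with a fold of 4.16, and in 7 P7 libraries with folds of 6.93 to 12.1 (adjusted p = 0.0304, Fisher exact test). Its peak lay at the edge of the window, with the median summit at -939 bp from the TSS. The partner chain Il12rb1 had no promoter peak.

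Il31ra and Il1rl2 showed the same presence pattern as Il12a. Il31ra, which pairs with Osmr to bind IL-31, was open in 0 adult and 7 P7 libraries, with P7 folds of 4.75 to 12 around a median of 6.63 (adjusted p = 0.00879, Fisher exact test). Il1rl2, the IL-36 receptor, was open in 0 adult and 7 P7 libraries with folds of 4.77 to 8.15 (adjusted p = 0.00879, Fisher exact test). Its median summit lay 925 bp downstream of the TSS, but its peaks lay at different places. All 4 Thy1 libraries had a peak with its summit at -60 to 61 bp from the TSS, and some had a further peak downstream. The cKit libraries with a peak had only the downstream kind, with summits at 925 to 1201 bp. For Il31ra and Il1rl2 alike, Scml2-KO cKit replicate 2 was the P7 library without a peak.

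Il10ra, the ligand-binding chain of the IL-10 receptor, was open in 1 adult library, Scml2-KO RS replicate 1 with a fold of 3.78, and in 7 P7 libraries with folds of 3.97 to 9.68 (adjusted p = 0.0304, Fisher exact test). Its shared partner Il10rb was open in 6 adult and 8 P7 libraries. Il1r2, a decoy receptor that captures IL-1, was open in 0 adult libraries and in 6 P7 libraries, all 4 of Thy1 and replicate 1 of each cKit genotype, with folds of 3.97 to 11.7 (adjusted p = 0.0247, Fisher exact test). The summits of the Il1r2 peaks had a median distance of 1117 bp downstream of the TSS, and in 5 of the 6 libraries the peak entered the window by its edge, with the summit beyond it. In Scml2-KO Thy1 replicate 2 the summit lay inside, at 957 bp.

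These patterns were shared with many other genes. Besides Il15ra itself, 111 genes had a peak in exactly the 8 P7 libraries. The exact pattern of Il12a, Il12rb2, Il31ra and Il1rl2 was shown by 178 other genes in each case, that of Il10ra and Il12b by 42, that of Il15 by 29 and that of Il1r2 by 130. Within replicate numbers, Il15ra was open in 0 of 4 adult and 4 of 4 P7 libraries in both, and Il15 in 1 adult and 4 P7 libraries of replicate 1 and in 0 adult and 4 P7 libraries of replicate 2.

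Other genes in the tested range did not pass, although Il7, Il6 and Il20ra did so with the replicate number as a block (adjusted p = 0.0470 for each, exact permutation test), a number that was not found to pair adult with P7 libraries. Il7, a ligand that acts through Il7r and Il2rg, was open in 3 adult libraries, all of them PS, with folds of 6.52 in Scml2-KO replicate 2 and of 3.61 and 4.52 in WT replicates 1 and 2, and in 8 P7 libraries with folds of 6.29 to 20.5 (adjusted p = 0.0546, Fisher exact test). It had the highest median fold of any ligand, 12.8, and no peak in any RS library. Il6 was open in 0 adult and 5 P7 libraries (adjusted p = 0.0546, Fisher exact test), all 4 Thy1 libraries with folds of 7.09 to 9.65 and Scml2-KO cKit replicate 1 with 4.79. Il17rc, the partner of Il17ra, and Il20ra, a chain of the IL-20 receptor, were each open in 1 adult and 6 P7 libraries (adjusted p = 0.0720 for each, Fisher exact test). Il22ra1 and Il27ra, the chains that bind IL-22 and IL-27, were each open in 2 adult and 5 P7 libraries (adjusted p = 0.395 for each, Fisher exact test). Il23a, the p19 subunit of IL-23, was open in 3 adult libraries, all PS with folds of 6.03 to 9.81, and in 3 P7 libraries with folds of 3.56 to 5.43 (adjusted p = 1, Fisher exact test).

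Il1r1, the signalling receptor for IL-1, was open in 4 adult and 8 P7 libraries and was outside the testable range. Its annotated starts behaved differently. The start at chr1:40225080 was open in 0 adult and 6 P7 libraries, and the start at chr1:40266586 in 4 adult and 8 P7 libraries. Fold enrichments at Il1r1 were 4.16 and 5.43 in Scml2-KO PS, 4.65 in WT PS replicate 1 and 4.54 in Scml2-KO RS replicate 1, against 4.72 to 16.9 in P7 libraries, with overlap.

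The lists of consecutive stages were compared by counts, because 4 against 4 libraries cannot pass the adjustment. Between cKit and Thy1, Il33 was the only interleukin gene open in 0 of 4 cKit and 4 of 4 Thy1 libraries, a pattern found in 0.239% of all genes, and none had the opposite pattern (0% of all genes). Il33 encodes a nuclear alarmin of the IL-1 family. Its folds in Thy1 were 6.62 and 3.97 in Scml2-KO and 6.63 and 6.00 in WT libraries. All 4 had the peak at the start at chr19:29945790, and 2 of them, both replicate 1, had a second peak at the start at 29925114. When only peaks with a −log10 q of 5 or more, or with a fold of 5 or more, were kept, Il33 no longer showed this pattern and Il6 did, and with equal list lengths no interleukin gene did. Il1rl1, the Il33 receptor, had a promoter peak in 1 library, WT cKit replicate 1. Il6 was open in 1 cKit and 4 Thy1 libraries, a pattern within the 0.965% of genes open in 4 Thy1 and at most 1 cKit libraries.

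Between PS and cKit, Il15 and Il15ra were each open in 0 of 4 PS and 4 of 4 cKit libraries, as were 1.3% of all genes. No interleukin gene was open in 4 of 4 PS and 0 of 4 cKit libraries, against 1.05% of all genes. Without Scml2-KO cKit replicate 2 the same comparison held 8 interleukin genes, with Il10ra, Il12a, Il12b, Il12rb2, Il1rl2 and Il31ra added, and 3.08% of all genes. Between RS and PS no interleukin gene was open in all libraries of one stage and none of the other, against 0.122% of all genes in RS only and 0.197% in PS only.

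Peaks in adult but in no P7 libraries were found at 5 of the 74 genes, against 7.56% of all genes, and all 5 had folds under 5. Il17c and Il31 were each open in Scml2-KO PS replicate 1 and Scml2-KO RS replicate 1, and Il17a and Il2 in Scml2-KO RS replicate 1 alone. Il4i1 was open in Scml2-KO PS replicate 1 and WT RS replicate 2, with folds of 4.16 and 4.13. The largest fold among the first 4 was 4.92, at Il2. Apart from that WT RS library, these peaks came from the longest adult lists.

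Scml2-KO and WT libraries had similar shares of open interleukin genes, 28.5% ± 10.8 in Scml2-KO and 28.2% ± 12.3 in WT (SD, n = 8 each). Of the 42 genes with a peak, 12 were open in more Scml2-KO libraries, 12 in more WT libraries and 18 in equal numbers, and the largest difference for any gene was 2 libraries. An exact test that exchanged genotype labels within stages could reach 0.05 for 2 of the 74 genes, and 0 passed, nor did any of 812 genes in all (0%). At an unadjusted p under 0.05 there were 0 interleukin genes and 14 of all genes, and the lowest adjusted p was 1. Of merged peak regions, 16 assigned to interleukin genes could be tested for genotype and 0 passed, against 0% of 8560 regions in all. At an unadjusted p under 0.05 these were 0 interleukin regions and 100 regions in all. So few genes could be tested that this does not show that the genotypes were alike.

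Within a stage, 1 interleukin gene was open in both libraries of one genotype and neither of the other. Il10rb, the shared chain of the IL-10 and IL-22 receptors, was open in RS in 2 of 2 Scml2-KO libraries with folds of 4.16 and 4.33, and in 0 of 2 WT libraries. The same pattern held for 2.29% of all genes, and the reverse one, open in WT only, for 0.398%. In the other stages, with no interleukin gene, the shares of all genes open in Scml2-KO only and in WT only were 0.0703% and 0.782% in Thy1, 0.112% and 0.122% in cKit, and 0.66% and 0.857% in PS. In RS, 1 of the Scml2-KO lists was the longest of all. In PS, Il10rb was open in both genotypes, with folds of 12 and 4.35 in Scml2-KO and 5.68 and 4.52 in WT libraries.

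Peaks away from promoters were taken from the authors' own assignment of each peak to a gene. Peaks of all libraries that overlapped were merged into regions, of which 888 were assigned to 1 of the 74 genes. Of these, 468 were found in 1 library only and 9 in all 16. With the same Fisher exact test, adjusted over 48340 regions, 143 interleukin regions could be tested and 101 passed, 22 open in more adult and 79 in more P7 libraries. Of all regions tested, 14.5% passed towards adult and 46.8% towards P7. With the same number of peaks taken from every list, 22 interleukin regions passed, 9 towards adult and 13 towards P7, and of all regions 3588 passed towards adult and 4422 towards P7.

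The 22 regions open in more adult libraries included no promoter. By the authors' names for the peaks in them, 14 were intergenic, 3 intronic, 3 upstream and 2 exonic. Of the 79 open in more P7 libraries, 13 were at promoters, 24 intronic, 23 intergenic, 15 upstream and 4 exonic. Il1r1 had 6 regions open in more P7 libraries, 1 at the promoter, 3 intergenic ones centred as far as -84962 bp from a TSS and 2 in introns, and Il12b had 5, alongside 1 open in more adult libraries.

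Some genes had regions of both kinds. Il15 had 4 regions open in more adult and 4 in more P7 libraries. Its promoter region, chr8:82401883-82403614, was open in 1 adult and 8 P7 libraries (adjusted p = 0.00877, Fisher exact test over regions). An intronic region at chr8:82393361-82394643, 8584 bp downstream of the TSS, was open in 6 adult libraries with a median fold of 11.9 and in 0 P7 libraries (adjusted p = 0.0199, Fisher exact test). An intergenic region at chr8:82286570-82287043 was likewise open in 6 adult and 0 P7 libraries, with a median fold of 12.3 (adjusted p = 0.0199, Fisher exact test). In both, the 6 libraries were 2 of PS and all 4 of RS. Il20rb, with no promoter peak in any library, had 4 regions open in more adult and 3 in more P7 libraries, and Il21, a T-cell cytokine gene also without a promoter peak, had 3 and 4.

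**Figure D4:**
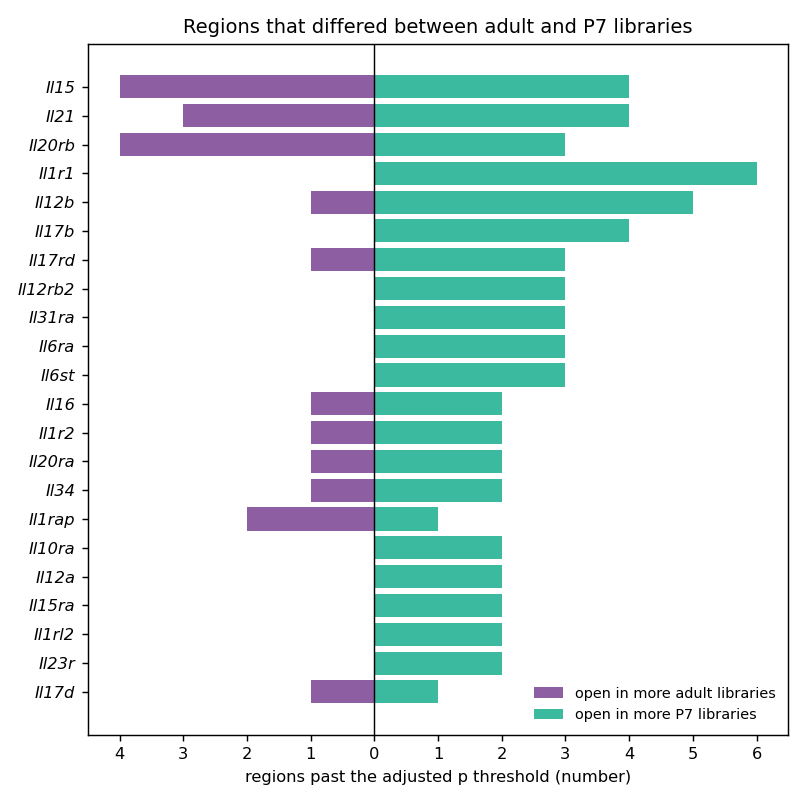
For each gene with at least 2 regions past an adjusted p of 0.05, bars give the number open in more adult libraries (left) and in more P7 libraries (right). Il1r1 has none on the adult side and 6 on the P7 side, and Il15 has 4 on each side.

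The strongest regions of each kind were named by median fold. Towards adult, the highest was a region upstream of Il1rap at chr16:26564760-26565046, centred at -16802 bp from its TSS, open in 7 adult libraries with a median fold of 13.1 and in 0 P7 libraries (adjusted p = 0.00877, Fisher exact test). The Il1rap promoter itself was open in all 16 libraries. Next to the Il15 regions stood an intergenic region assigned to Il33, chr19:29854204-29855533, open in 8 adult and 2 P7 libraries, the 2 being cKit (adjusted p = 0.0199, Fisher exact test), and one assigned to Il21, chr3:37170842-37171657, open in 7 adult and 0 P7 libraries (adjusted p = 0.00877, Fisher exact test).

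Towards P7, the highest was an Il15ra intron region at chr2:11712363-11713405, open in 0 adult and 8 P7 libraries with a median fold of 11.3 (adjusted p = 0.00402, Fisher exact test). It lay 7172 bp downstream of a TSS. The Il15ra promoter region and an exonic and intronic region of Il1r2 at chr1:40117437-40117969 were the other regions open in exactly the 8 P7 libraries. The promoter regions of Il7 and Il15 and an intergenic region of Il6ra at chr3:89861054-89861593, open in 0 adult and 7 P7 libraries (adjusted p = 0.00877, Fisher exact test), completed the 5 highest. The Il7 region, which failed the test among genes, passed among regions at an adjusted p of 0.0418 (Fisher exact test).

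Promoter sequence composition went with the number of open libraries. The median CpG observed over expected ratio was 0.273 for the 53 matched interleukin promoters and 0.636 for all 14365 matched genes. It was 0.835 for the 8 interleukin genes open in 15 or 16 libraries, 0.262 for 6 of those that passed towards P7, and 0.204 for 20 with no peak. The same classes of all genes had 0.827, 0.457 and 0.154. Across genes, Spearman's rho between this ratio and the number of open libraries was 0.64 for the interleukin genes (n = 53) and 0.75 for all genes (n = 14365). Genes are not independent replicates, and the values are a description. Where a gene has several starts, these medians use the first start matched, which gives Il15ra 0.292 and Il12a 0.152. With the start open in most libraries and nearest its summits, as in the windows printed above, the median of the 6 genes that passed towards P7 was 0.488, close to the 0.474 of all genes that passed that way, while the 53 interleukin promoters had 0.273 and those with no peak 0.204.

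**Figure D5:**
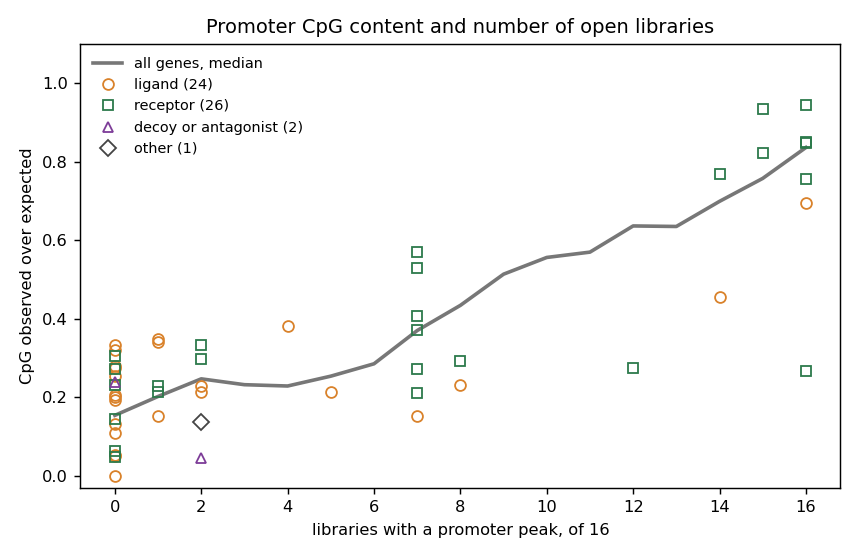
Each symbol is the RefSeq promoter of 1 interleukin gene at the first start matched, which for Il15ra and Il12a is not the window printed above. The number of libraries with a promoter peak (x axis) is set against the CpG observed over expected ratio (y axis). The line is the median of all genes with that number of libraries. Il11ra1, open in 16 libraries with a ratio of 0.267, lies far below the line, whereas Il6st at 0.943 lies above it.

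Short motifs were searched on both strands of the 300-base window at the first start matched, as plain letters. For Il15ra and Il12a this is not the window printed above. GGGCGG, the core of a GC box, was found in 34.0% of interleukin promoters and 51.0% of all promoters. TATAAA was found in 18.9% of interleukin promoters and 11.2% of all, with 37.5% of ligands and 3.85% of receptors. TGANTCA, the letters of an AP-1 site, was found in 22.6% of interleukin promoters and 6.71% of all, and GGGANTT, part of an NF-kB site, in 30.2% and 16.7%. TTC, any 3 bases and GAA, the letters of a STAT site, were found in 11.3% of interleukin promoters and 7.78% of all. CCAAT, the letters of an NF-Y site, was found in 30.2% of interleukin promoters and 38.4% of all. CACGTG, an E-box, was found in 1.89% of interleukin promoters and 8.58% of all. TGACGT, the core of a CRE, was found in 5.66% of interleukin promoters and 9.40% of all. A match is a description of the letters and not a site.

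The genes through which these receptors signal were mostly open at all stages. Of 25 Janus kinase, STAT, SOCS and related genes, 18 were open in all 16 libraries, and the share per library was 91.5% ± 5.42 in adult and 97.5% ± 7.07 in P7 libraries (SD, n = 8 each). In the test of adult against P7, 2 could be tested and 0 passed. Of 30 adaptors and NF-kB genes of the IL-1 and IL-17 pathways, 19 were open in all 16, with shares of 85.4% ± 5.89 in adult and 90.0% ± 3.56 in P7 libraries. Here 2 could be tested and 1 passed. It was Ikbkg, the X-linked regulatory subunit of the IkB kinase, open in 2 adult and 8 P7 libraries (adjusted p = 0.0247, Fisher exact test). Nlrp3, a sensor that leads to IL-1 processing, was open in none.

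Of 21 receptor chains and ligands of the same families without an Il name, 5 could be tested and 0 passed. Shares were 45.8% ± 11.1 in adult and 59.5% ± 9.86 in P7 libraries. The leukaemia inhibitory factor receptor Lifr, which pairs with Il6st, and the interferon receptor chains Ifnar1 and Ifngr1 were open in all 16 libraries. Osmr, the partner of Il31ra, was open in 2 adult and 7 P7 libraries (adjusted p = 0.0720, Fisher exact test).

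Markers of other testis cells moved in the same direction as the interleukin genes. Of 14 Sertoli cell markers, 26.8% ± 17 were open in adult and 76.8% ± 18.6 in P7 libraries, with 1 to 8 open per adult library and 5 to 13 per P7 library. Of 12 peritubular and fibroblast markers, 31.3% ± 18.2 were open in adult and 81.3% ± 21.2 in P7 libraries, with 1 to 7 and 5 to 12 open. Of 12 endothelial markers, 19.8% ± 12.5 were open in adult and 52.1% ± 16.5 in P7 libraries, with 1 to 5 and 3 to 9 open, and Pecam1, Tie1 and Robo4 were open in none. Of 9 Leydig cell markers, 9.72% ± 11 were open in adult and 31.9% ± 20.9 in P7 libraries, with 0 to 3 and 0 to 5 open, and Cyp11a1 and Hsd3b1 were open in none. In the Fisher exact test 4 of 9 Sertoli, 3 of 10 peritubular, 3 of 5 endothelial and 1 of 4 Leydig markers tested passed, all towards P7, where 24.7% of all genes tested passed that way. Their part in the interleukin result was not tested.

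Leukocyte markers were open at low shares. Of 20 found in the annotation, 8.12% ± 7.53 were open in adult and 13.8% ± 8.76 in P7 libraries (SD, n = 8 each), with 0 to 4 and 0 to 5 open per library. In 11 of the 20, among them Ptprc, the pan-leukocyte antigen CD45, Itgam, Cd3g and Cd4, no library had a promoter peak. Among the rest, 4 could be tested and 0 passed. Cd14, a monocyte co-receptor, was open in 2 adult and 7 P7 libraries, and Cd68 in 1 adult and 5 P7 libraries. Cd8a was open in 4 adult and 2 P7 libraries, and Aif1 in 5 adult and 0 P7 libraries. Too few libraries were open to test the others. Csf1r and Mrc1 were each open in 0 adult and 3 P7 libraries, Cd79a and Lyz2 each in 0 adult and 1 P7 library, and Cd3e in 1 adult and 0 P7 libraries. The part of leukocyte markers in the interleukin result was not tested. Of 12 spermatocyte markers 99.0% ± 2.95 were open in adult and 53.1% ± 15.4 in P7 libraries, and of 12 spermatid markers 89.6% ± 9.71 in adult and 18.8% ± 10.7 in P7 libraries. Of those tested, 4 of 4 spermatocyte and 8 of 9 spermatid markers passed, all towards adult, where 8.48% of all genes tested passed that way. Spermatogonial markers, 15 in number, were open at 50.8% ± 15.9 in adult and 62.5% ± 19.8 in P7 libraries, and 0 of 6 tested passed.

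The calls varied with the peak threshold and list length for most genes. Il15 and Il15ra passed the test of adult against P7 under all 7 other settings and with each of the 16 libraries left out. The other 7 genes that passed did so with each library left out but failed under at least 2 of the other settings. With the same number of peaks taken from every list, 7 genes passed, 1 towards adult (Il17rb) and 6 towards P7 (Il10rb, Il15, Il15ra, Il1r1, Il4ra and Il7). Of all genes, more passed in each direction than with the full lists, as given above. Without Scml2-KO cKit replicate 2, 14 genes passed, with Il17rc, Il20ra, Il33, Il6 and Il7 added, and 2408 of all genes. The numbers that could be tested under these settings are not given, so these counts are not shares and cannot be set against the main result.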

How the data were processed

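ATAC-seq peak lists of 16 libraries, called per library, were used. The submitters' processing notes name Bowtie 1.1.1, MACS2 2.1.0.20140616 and mm10, without the options used. Per the file headers, the authors deposited the pileup at each summit (a signal or coverage value, not scaled to library size), a fold enrichment (a ratio over the library's background), −log10 p and −log10 q, and peak length, plus gene and region names. In every list the smallest −log10 q was 1.30 to 2.09, so weaker signal is absent.

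Lines of the same peak were joined, and mitochondrial lines were left out. Start sites (23527, for 21348 genes) came from the deposited transcripts, 1024 genes being matched by position to RefSeq. The members, roles, pathway lists and tests were chosen with earlier results of these data known. Named genes were those open in 15 or 16 libraries, those passing a test, those differing by 4 or more libraries between adult and P7 or between genotypes, those in all 4 libraries of a stage and at most 1 of a neighbouring stage, and the strongest of each role. Other genes, among them those open in 1 to 4 libraries, near the window's edge, tested but not passing, or in the pathway and marker lists without passing, were named after their values were seen.

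Adult and P7 were compared with Fisher's exact test, and genotypes with an exact permutation test within stages, both two-sided with Benjamini-Hochberg adjustment over all testable genes or regions (Python 3.11.15, scipy 1.17.1); the scripts were tested on simulated data. Same-numbered Scml2-KO and WT libraries of a stage deviated together across genes (r of 0.234 to 0.453 in 4 pairs). Replicate 1 had the longer list in all 8 groups, so this r cannot tell pairing by number from list length. Libraries of the same number from different stages of one age had r of 0.0517 to 0.371 (8 pairs). Adult and P7 libraries of the same number did not deviate together (r of -0.220 to -0.0317). Alternatives were a −log10 q or fold of at least 5, equal list lengths, a 500-bp window, the summit inside the window, 100 bp of overlap, no filter, the replicate block, each library left out and, chosen after seeing the data, another start for promoter composition. Wilson 95% intervals cover counting error only.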

Additional observations from a re-analysis of the deposited data

Results flagged for a closer look

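In RS, Scml2-KO replicate 1 stood apart from the other 3 libraries. It had a promoter peak at 28.4% of the interleukin genes (21 of 74, Wilson 95% interval 19.4 to 39.5) and at 22.9% of the ligands (8 of 35, 12.1 to 39.0), whereas the other RS libraries had 14.9% to 16.2% of the genes and 2.86% to 5.71% of the ligands. Its list was also the longest, with 164060 peaks. In cKit, Scml2-KO replicate 2 had the smallest share of its list assigned to interleukin genes, 0.208% (37 of 17813 peaks, 0.151 to 0.286), against 0.247% to 0.255% in the other 3 libraries, and its list was the shortest. In all, 24 combinations of a stage or age and a measure were looked at for a library far from the others, and chance gives such a gap in about 1 in 20. The part of list length in these values was not tested.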

How the results depend on the processing

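With peaks of −log10 q of 5 or more, 0 interleukin genes were open in 4 cKit and no PS libraries. The mean adult share of open interleukin genes was 13.7%, and 15504 regions and 52 interleukin regions passed between adult and P7. With a fold of 5 or more these were 1 interleukin gene, 13.7%, 17313 and 60. With equal list lengths 2126 of all genes passed, and 0 interleukin genes separated cKit from Thy1. Under that setting the shares of open interleukin genes were 11% in adult and 20.1% in P7 libraries. There 8010 regions and 22 interleukin regions passed. With no filter 623 genes, 1868 regions and 3 interleukin regions passed. Under the replicate block 2231 genes passed, against 1299 without it, together with 12 interleukin genes (Il6, Il7 and Il20ra added), 121 interleukin regions and 37582 regions. The genotype test gave 0 genes with the block, and the block changed no genotype call. The causes were not tested. Leaving out 1 library at a time gave 1324 to 2408 genes, 9 to 14 interleukin genes, 71 to 134 interleukin regions and 19220 to 42889 regions. Between stages, counted over interleukin genes only, it gave 1 to 2 for cKit against Thy1, 2 to 8 for PS against cKit and 0 to 1 for RS against PS. For genotype it gave 0 genes. Scml2-KO cKit replicate 2 gave the highest gene counts (2408, 14 and 8), Scml2-KO cKit replicate 1 the 2 genes for cKit against Thy1 (Il33 and Il6), Scml2-KO PS replicates 1 and 2 the 1 gene for RS against PS (Il7 and Il23a), and WT PS replicate 1 and WT RS replicate 1 the lowest region counts (19220 and 19366). No result reversed. The number of reads is unknown here. The background pileup implied by the deposited pileups and folds was higher for the longer list in some groups and lower in others. In Scml2-KO Thy1 it was 0.963 in replicate 1 and 0.258 in replicate 2, and in Scml2-KO cKit 0.877 and 0.907. How far this background follows depth was not tested. List length limits which weak peaks were seen.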

Other observations

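On the X chromosome, 5 further genes carry an Il name. Il13ra1, the IL-13 receptor chain that pairs with Il4ra, was open in 1 adult and 8 P7 libraries (adjusted p = 0.00879, Fisher exact test). Il1rapl1, a synaptic relative of Il1rap, was open in 0 adult and 7 P7 libraries (adjusted p = 0.00879, Fisher exact test), and its relative Il1rapl2 in 1 adult and 6 P7 libraries (adjusted p = 0.0720, Fisher exact test). Il2rg, the common gamma chain used by IL-2, IL-4, IL-7, IL-9, IL-15 and IL-21 receptors, was open in 1 adult and 0 P7 libraries, and Il13ra2, a decoy for IL-13, in none.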
